A study of Mus musculus with 8 samples.

Results

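The maturation of the male mouse hippocampus between weaning age and young adulthood was read from 8 whole-transcript arrays, 4 of animals aged 3 weeks and 4 of animals aged 10 weeks, which are all arrays of the series. Arrays entered by the age in their titles, and every one of the 22206 transcript clusters was tested, with no filter on dim clusters. At each age, 2 arrays came from offspring whose dams had received clothianidin (CLO), a neonicotinoid insecticide, by mouth at 65 mg/kg/day, the no-observed-adverse-effect level, on postnatal days 1 to 4, and 2 from offspring of dams given vehicle on those days. The groups are therefore vehicle at 3 weeks, clothianidin at 3 weeks, vehicle at 10 weeks and clothianidin at 10 weeks. Neither the strain nor the number of animals or litters behind an array is given in the labels, so p-values reflect no more than how far these samples differ from each other, and that spread may be technical. No label says whether the ages were processed in separate batches, and a batch of that kind cannot be told apart from age.

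The rodent hippocampus at weaning already holds its pyramidal and granule cell layers, but its circuits are still being finished. Over the following weeks excitatory synapses are stabilised, inhibition matures as chloride transporters and GABA receptor subunits change, extracellular matrix closes around neurons, the brain turns from ketone bodies and fat in milk to glucose, and neurogenesis and developmental gene programmes wind down. Glia, vessels and immune molecules that prune synapses are remodelled in the same window. The values below are log2 intensities made by RMA, a method that corrects background, normalises and summarises the probes of a cluster, so a difference of 1 means a 2-fold change on the array. Every difference is 10 weeks minus 3 weeks, with the standard error of a limma model that carries exposure as a covariate. The 4 values of an age are in the order vehicle 1, vehicle 2, clothianidin 1, clothianidin 2, and a gene is said to rise or fall only where its limma p, adjusted over all clusters by the method of Benjamini and Hochberg, was under 0.05.

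Of the 22206 clusters, 2905 passed (13.1%), with 1687 higher (7.6%) and 1218 lower (5.49%) at 10 weeks. The change was at least 2-fold in 903 of them and at least 4-fold in 16. The median difference over all clusters was 0.07. The 4 arrays of one age did not overlap those of the other in 4371 clusters (19.7%), and in 2522 of those that passed. After each array was centred on its median 45.6% of the called clusters were higher, and 48.5% after quantile normalisation, against 58.1% in the values as deposited, so the balance of rises and falls depends on the scaling. A list of genes has to be read against these shares. The 1091 olfactory receptor genes, which serve the nasal epithelium and had a median level of 3.54, were called at 13.4% (51 higher and 95 lower), and the 323 vomeronasal receptor genes at 15.2%. Among the 2972 clusters that lay below the lower quartile of every array, 6.86% were called.

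Arrays also differed in ways that age does not explain. Ttr, the thyroid hormone carrier of the choroid plexus, the epithelium that lies beside the hippocampus in the ventricle, read 6.49, 19.16, 18.82 and 7.09 at 3 weeks and 6.86, 7.37, 18.25 and 5.24 at 10 weeks. Its 3 values above 18 belong to 1 vehicle and 1 clothianidin array at 3 weeks and to 1 clothianidin array at 10 weeks. Without these 3 arrays, 77 clusters passed in the 5 that remain, and all of the 2905 kept the sign of their difference. With the Ttr level as a covariate 2605 passed, of which 2325 were among the 2905. Leaving out 1 array gave between 1540 and 2469 calls. The count was more than 1.5 times smaller without the first (1577) or second (1737) clothianidin array at 3 weeks, the second vehicle array at 10 weeks (1647), or the first (1540) or second (1613) clothianidin array at 10 weeks. The genes that kept their call in all 8 of these fits are named after each group below. Any other gene named as risen or fallen lost it in at least 1 of the 8, where the adjusted p reached at most 0.147. Rxrb, Nlgn1, Wnk3, Kcnh3, Chst11, Chst15, Sc5d, Spock2, Egr3, Fosl1, Gdnf, H2-Q1, H2-T3, Aurkb and Ngp kept it in 0 of the 8. Others, such as Gabra2, Gabrb2, H2-K1 and Bdh1, kept it in 1.

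The plot of called shares by gene list sets the lists against this background.

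**Figure D1:**
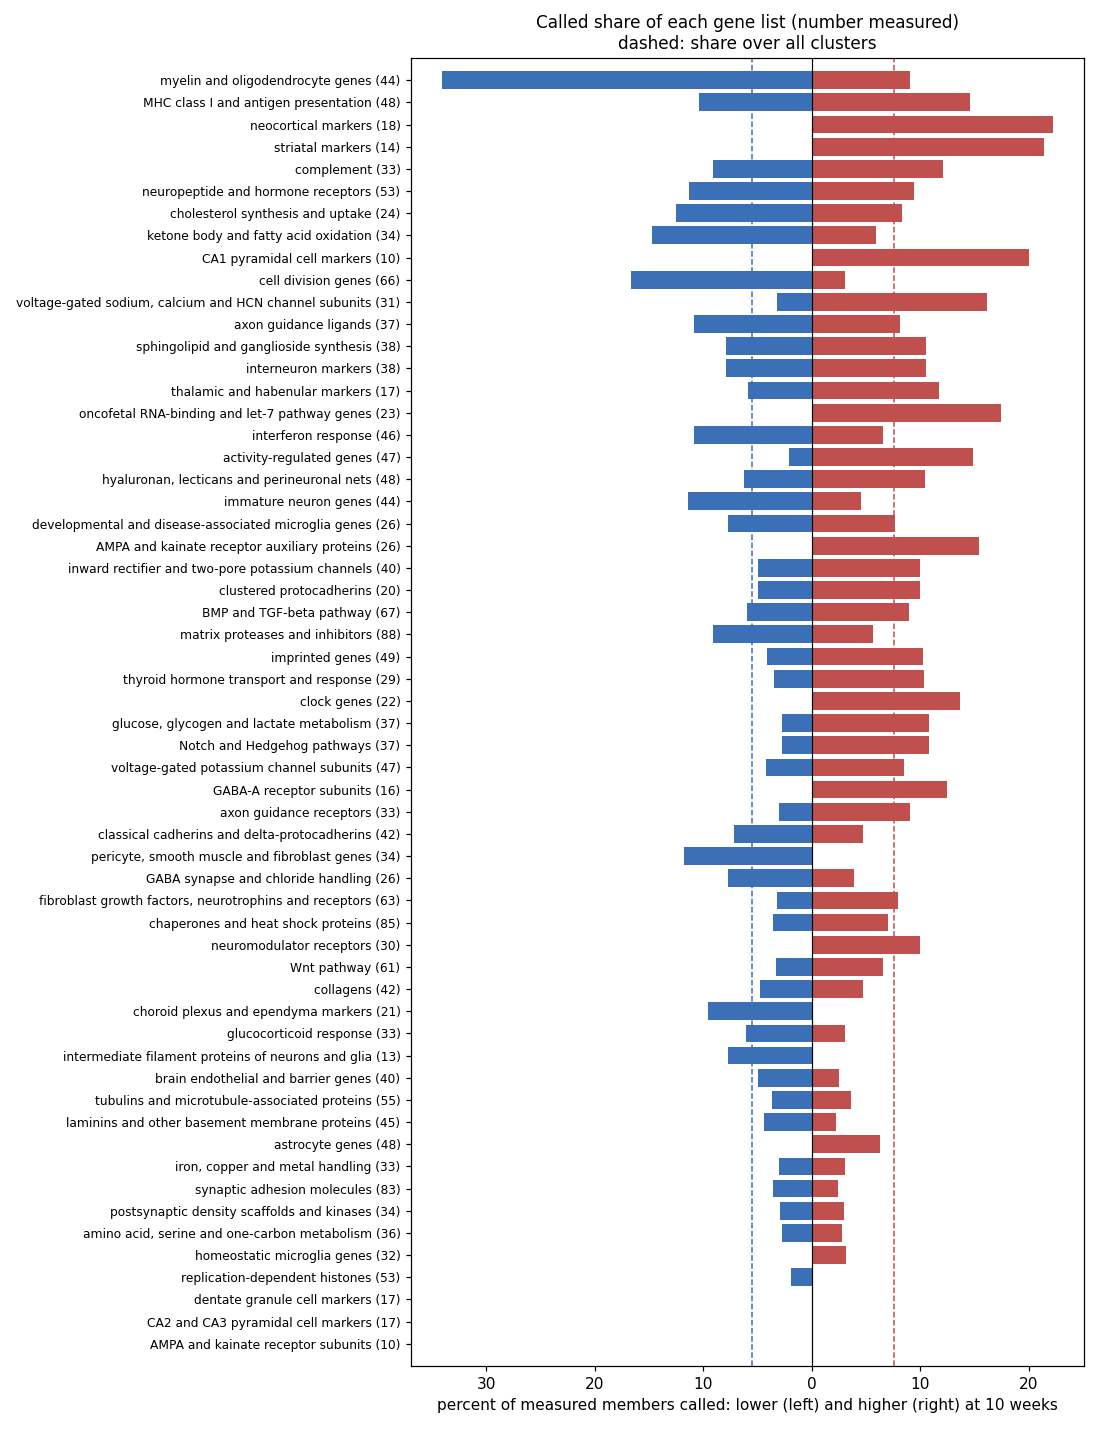
Percentage of the measured members of each gene list that passed the limma threshold (adjusted p under 0.05), split into members higher (right) and lower (left) at 10 weeks, for lists of at least 10 measured members. The dashed lines stand at the shares over all clusters, 7.6% higher and 5.49% lower, and most lists lie near them. Myelin genes reach furthest to the left, and neocortical and striatal markers furthest to the right.

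Il33, which encodes an alarmin cytokine that nuclei of glia store and that acts on microglia, had the largest rise of the genes taken by the naming rule. It read 8.11, 7.99, 7.35 and 7.87 at 3 weeks and 10.0, 10.04, 10.12 and 10.23 at 10 weeks, a difference of 2.27 ± 0.20 (4 arrays per age, 4.82-fold, adjusted p = 0.000281). Every array at 10 weeks lay well above every array at 3 weeks. Ngfr, the p75 neurotrophin receptor, read 4.32, 4.53, 3.74 and 4.07 at 3 weeks and 6.41, 6.02, 5.97 and 6.35 at 10 weeks (2.02 ± 0.20, adjusted p = 0.000599). Its ages did not overlap, by the same rule. Kcns3, a silent subunit that modifies Kv2 potassium channels, read 6.38, 6.64, 5.88 and 6.13 at 3 weeks and 8.06, 7.96, 8.06 and 8.10 at 10 weeks (1.79 ± 0.19, adjusted p = 0.000852). The 10-week arrays lay within 0.14 of each other.

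The rule named 12 further large rises, from 2.19 down to 1.64. They covered membrane and lipid genes, namely Ms4a4c, the organic anion transporter gene Slco1a6 (1.82 ± 0.23), the lipoxygenase gene Alox8 (1.74 ± 0.26) and the alkaline ceramidase gene Acer3 (1.68 ± 0.23). They also covered chromatin and RNA genes, with Jade2 (1.95 ± 0.39), Mllt1 (1.86 ± 0.21) and the nonsense-mediated decay factor gene Upf2 (1.72 ± 0.32). Mks1, which builds the transition zone of the cilium, rose by 1.83 ± 0.19 and the centrosomal gene Cep112 by 1.64 ± 0.27, and the rest were Spata2, Gstt1 and Pramel51. For Ms4a4c 4 arrays and for Pramel51 3 arrays read below their own lower quartile, all at 3 weeks, so that expression at that age is not established. All 15 largest rises kept their call in the 8 fits without 1 array.

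Rnf122, which encodes a membrane-bound ubiquitin ligase, had the largest fall among the genes the naming rule took, which leaves out the myelin list. It read 10.0, 11.10, 10.92 and 10.99 at 3 weeks and 8.01, 6.91, 7.85 and 7.64 at 10 weeks (-3.15 ± 0.28, 8.88-fold lower, adjusted p = 0.000281). The lowest array at 3 weeks was the first vehicle array, and it still stood 1.99 above the highest array at 10 weeks. Sema6a, a transmembrane semaphorin that acts in axon guidance and in oligodendrocytes, read 10.30, 11.49, 10.77 and 10.79 at 3 weeks and 8.62, 9.25, 8.72 and 9.67 at 10 weeks (-1.77 ± 0.29, adjusted p = 0.00454). The second vehicle array was the highest at 3 weeks. Elovl1, which elongates the very long fatty acids of sphingolipids, read 8.84, 9.83, 9.88 and 9.92 at 3 weeks and 7.93, 7.92, 7.71 and 7.89 at 10 weeks (-1.75 ± 0.24, adjusted p = 0.00219).

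The other large falls were led by Tma16 (-2.12 ± 0.19), Dmrta1 (-2.05 ± 0.25), a forebrain developmental transcription factor gene, and Bbs5 (-1.93 ± 0.20), a subunit of the BBSome that carries cargo into cilia. Fgd5, a guanine nucleotide exchange factor of endothelial cells, fell by 1.85 and Tal1, a transcription factor of blood and endothelial lineages, by 1.75 on the log2 scale. Casr, the calcium-sensing receptor, differed by -1.76 ± 0.24, the zinc transporter gene Tmem163 by -1.81 ± 0.33 and the endophilin gene Sh3gl3 by -1.84 ± 0.22. Pgam2, Myocos, Pram1 and Glb1l3 completed the 15, all of which kept their call in the 8 fits without 1 array. At 10 weeks Dmrta1, Pram1 and Glb1l3 read below the lower quartile in all 4 arrays.

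At the glutamate synapse 0 receptor subunits passed. Of the 6 measured NMDA receptor subunits, the 10 of AMPA and kainate receptors and the 6 metabotropic receptors, 0 passed in limma. The juvenile NMDA subunit gene Grin2b read 13.72, 14.19, 13.92 and 14.06 at 3 weeks and 13.68, 13.73, 14.34 and 13.99 at 10 weeks (-0.04 ± 0.20) and the mature subunit gene Grin2a 12.32, 13.09, 12.90 and 12.80 at 3 weeks and 12.64, 13.04, 13.17 and 13.26 at 10 weeks (0.25 ± 0.21). Both genes overlapped between the ages. Grin2c differed by 0.57 ± 0.23, Grin2d by -0.29 ± 0.27, Grin3a by 0.29 ± 0.29, the AMPA subunit gene Gria1 by 0.21 ± 0.20 and Gria2 by 0.15 ± 0.19, with adjusted p-values from 0.121 to 0.637. Grik2 (0.34 ± 0.17), Gria3 (0.34 ± 0.18), Grm3 (0.57 ± 0.20) and Grm5 (0.52 ± 0.20) lay above 0 without passing.

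Of 26 auxiliary proteins of AMPA and kainate receptors, 4 rose and 0 fell (15.4%), with a median difference of 0.38 against 0.07 over all clusters. Over clusters at or above the median level it was 0.17. After quantile normalisation the list median was 0.2, against 0 over all clusters. Nptx1, a secreted pentraxin that gathers AMPA receptors at synapses, read 10.17, 11.34, 11.31 and 11.08 at 3 weeks and 11.45, 12.12, 12.38 and 12.20 at 10 weeks (1.06 ± 0.26, adjusted p = 0.0208). The ages did not overlap, though the highest 3-week array and the lowest 10-week array were 0.11 apart. The AMPA receptor partners Shisa7 (0.82 ± 0.23), Shisa9 (0.72 ± 0.20) and Cpt1c (0.65 ± 0.20) rose too. Among 34 scaffolds and kinases of the postsynaptic density 1 rose and 1 fell, which is 5.88%. The scaffold gene Homer2 read 7.58, 8.78, 8.46 and 8.42 at 3 weeks and 9.18, 8.85, 9.48 and 9.67 at 10 weeks (0.99 ± 0.25) and Dlgap2, a partner of PSD-95, 11.10, 10.39, 9.92 and 10.47 at 3 weeks and 9.26, 9.53, 9.23 and 9.79 at 10 weeks (-1.02 ± 0.25). Of the 83 synaptic adhesion genes 2 rose and 3 fell (6.02%), with Nlgn1, the neuroligin of excitatory synapses, at 0.64 ± 0.18 and the latrophilin ligand gene Flrt3 at 0.64 ± 0.19. The immunoglobulin superfamily genes Igsf6 (-1.14 ± 0.25), Igsf23 (-1.01 ± 0.21) and Igsf3 (-0.80 ± 0.21) fell, the former pair at levels near background. Of the genes in this account of the glutamate synapse and its adhesion molecules only Igsf6 and Igsf23 kept their call in all 8 fits, and after quantile normalisation 1 auxiliary protein passed.

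At GABA synapses, Gabra2 and Gabrb2, a pair of GABA-A receptor subunits, rose among 16 measured (12.5%). Gabra2 read 14.12, 14.18, 14.99 and 14.82 at 3 weeks and 14.94, 15.21, 15.39 and 15.30 at 10 weeks (0.68 ± 0.19, adjusted p = 0.0331), and the ages overlapped. Gabrb2 read 14.38, 14.33, 14.21 and 14.63 at 3 weeks and 15.09, 14.99, 14.95 and 15.12 at 10 weeks (0.65 ± 0.18, adjusted p = 0.0345), with no overlap. Both calls were lost after quantile normalisation and after centring. Gabra3 (0.60 ± 0.24) and Gabra5 (-0.29 ± 0.19), subunits typical of the young brain and of extrasynaptic sites, did not pass.

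Slc12a2 encodes NKCC1, the transporter that brings chloride into immature neurons, and Slc12a5 encodes KCC2, which expels it. Slc12a2 read 11.32, 12.17, 11.88 and 11.39 at 3 weeks and 10.53, 10.52, 11.02 and 11.11 at 10 weeks (-0.90 ± 0.24, adjusted p = 0.0288), so that every array was lower at 10 weeks. The values 12.17 and 11.88 at 3 weeks and 11.02 at 10 weeks come from the arrays with Ttr above 18. The part of choroid plexus or other non-neuronal cells in this difference was not tested. Slc12a5 read 10.90, 11.07, 11.14 and 11.42 at 3 weeks and 11.34, 11.20, 11.57 and 11.38 at 10 weeks (0.24 ± 0.18, adjusted p = 0.387), and its ages overlapped. Wnk3, a kinase that acts on both transporters, rose by 0.61 ± 0.18, and the chloride channel gene Clcn2 fell (-0.73 ± 0.21), which makes 3 of 26 members of this list (11.5%).

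Interneuron markers were called at 18.4%, with 4 of 38 higher and 3 lower. Npy, the peptide of a dendrite-targeting interneuron class, read 8.67, 8.64, 8.70 and 8.61 at 3 weeks and 9.22, 9.33, 9.80 and 9.09 at 10 weeks (0.71 ± 0.20, adjusted p = 0.036). The enkephalin precursor gene Penk (0.87 ± 0.22), the homeobox gene Dlx6 (0.82 ± 0.22) and Lamp5, a gene of neurogliaform cells (0.79 ± 0.22), rose as well. Calb2, which encodes calretinin, read 10.75, 10.58, 10.70 and 10.88 at 3 weeks and 9.72, 10.30, 9.79 and 9.41 at 10 weeks (-0.92 ± 0.21, adjusted p = 0.0165), and every 10-week array was lower. Vip (-0.86 ± 0.25) and Ndnf (-0.78 ± 0.17) also fell, and Ndnf alone of these 7 kept its call in all 8 fits without 1 array. After quantile normalisation 1 marker was higher and 3 were lower. Pvalb, the marker of fast-spiking basket cells, read 7.55, 8.08, 8.15 and 8.67 at 3 weeks and 9.45, 8.32, 8.98 and 8.83 at 10 weeks (0.78 ± 0.27, adjusted p = 0.0714) and did not pass. Sst differed by 0.35 ± 0.21. In whole tissue, fewer cells of a type and less RNA per cell cannot be told apart.

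**Figure D2:**
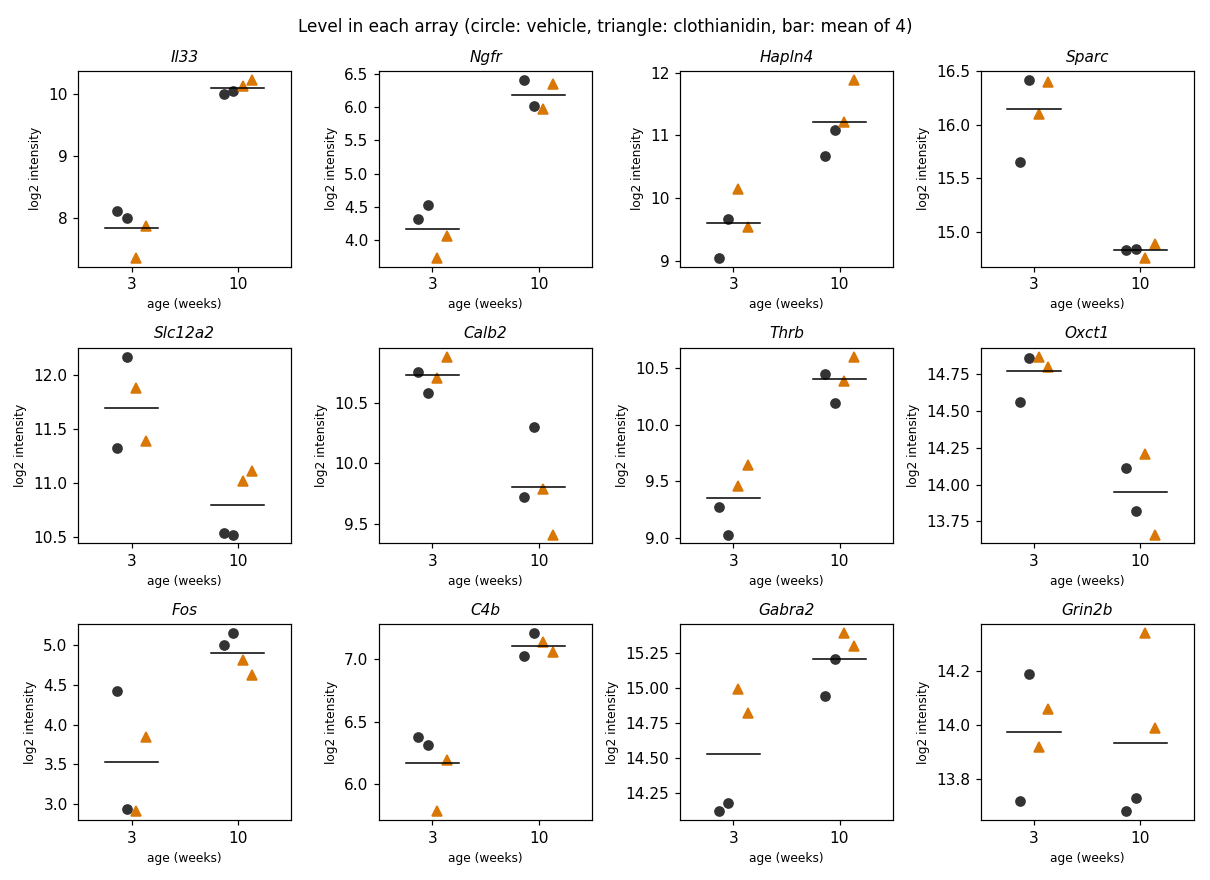
Log2 intensity of 12 genes in each of the 8 arrays, by age (3 or 10 weeks, x axis), with circles for vehicle and triangles for clothianidin arrays and a bar at the mean of the 4 arrays of an age. In Il33, Ngfr, Hapln4, Slc12a2, Calb2, Sparc, Oxct1, Thrb, Fos and C4b the ages do not overlap, while Gabra2 and Grin2b overlap.

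Ion channels that set excitability were called in both directions, at shares between 12.8% and 19.4%. Of 31 sodium, calcium and HCN channel subunits, 5 rose and 1 fell (19.4%), with a median difference of 0.19. Scn1a, the sodium channel of fast-spiking interneurons, read 10.13, 9.91, 9.85 and 10.05 at 3 weeks and 10.70, 10.33, 10.69 and 11.02 at 10 weeks (0.70 ± 0.19, adjusted p = 0.0352). The ages did not overlap. Scn8a, the sodium channel of the axon initial segment, went the other way, with 12.78, 12.43, 12.36 and 12.57 at 3 weeks and 11.80, 11.63, 11.40 and 11.85 at 10 weeks (-0.86 ± 0.19, adjusted p = 0.0139). The T-type calcium channel gene Cacna1h (0.92 ± 0.22), the beta subunit genes Scn4b (0.74 ± 0.21) and Scn2b (0.65 ± 0.20), and Scn3a (0.71 ± 0.18) rose. After quantile normalisation 0 of these rises and the fall of Scn8a passed.

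Among 47 voltage-gated potassium channel subunits 4 rose and 2 fell (12.8%), and among 40 inward rectifier and two-pore channels 4 rose and 2 fell (15%). Beside Kcns3, a second silent subunit gene, Kcng3, rose by 1.35 ± 0.26. Kcna1, which shapes the axonal action potential, read 11.68, 12.20, 11.72 and 11.97 at 3 weeks and 12.14, 12.73, 12.67 and 13.12 at 10 weeks (0.77 ± 0.23, adjusted p = 0.0432), with overlapping ages, and Kcnh3 differed by 0.63 ± 0.19. Kcnj9, a GIRK channel subunit that G proteins open, read 4.75, 5.68, 5.46 and 6.25 at 3 weeks and 6.79, 6.73, 6.89 and 7.29 at 10 weeks (1.39 ± 0.25, adjusted p = 0.0067). Its partner Kcnj6 (0.77 ± 0.23), the BK channel subunit gene Kcnmb4 (0.83 ± 0.21) and the small-conductance channel gene Kcnn3 (0.70 ± 0.21) rose too. The falls were in Kcng4 (-1.24 ± 0.27), Kcnh6 (-0.79 ± 0.19), Kcnk16 (-0.90 ± 0.19) and Kcnk13 (-0.73 ± 0.19). Kcnk16 was below the lower quartile in all 8 arrays, Kcnh6 in 7, Kcng4 in 3 and Kcnk13 in 1. After quantile normalisation, and likewise after centring, each of these potassium channel lists held 2 higher and 2 lower members. Among the channels, Scn8a, Kcns3, Kcng3, Kcng4, Kcnj9 and Kcnk16 kept their call in all 8 fits.

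Receptors for transmitters and hormones moved in both directions. Of 30 neuromodulator receptors 3 rose and 0 fell (10%). Htr1a, the serotonin receptor that opens GIRK channels in pyramidal cells, read 9.02, 9.28, 9.13 and 8.76 at 3 weeks and 10.07, 9.92, 9.68 and 9.89 at 10 weeks (0.84 ± 0.18, adjusted p = 0.0134), and its ages stood apart. Htr5a rose by 0.66 ± 0.17 and the dopamine receptor gene Drd2 by 0.88 ± 0.22.

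Of 53 peptide and hormone receptors 5 rose and 6 fell (20.8%). Thrb, the beta receptor of thyroid hormone, read 9.27, 9.03, 9.46 and 9.64 at 3 weeks and 10.45, 10.19, 10.38 and 10.60 at 10 weeks (1.06 ± 0.18, 2.08-fold, adjusted p = 0.00574). Rxra (0.96 ± 0.19) and Rxrb (0.62 ± 0.17), the partners with which it binds DNA, rose with it, so that 3 of 29 thyroid hormone genes were higher and 1 was lower (13.8%). The mu opioid receptor gene Oprm1 (0.86 ± 0.25), the insulin receptor gene Insr (0.73 ± 0.18), the cation channel gene Trpc4 (0.70 ± 0.19) and the neuropeptide Y receptor gene Npy5r (0.70 ± 0.21) also rose. The glucocorticoid receptor gene Nr3c1 read 8.77, 8.73, 8.93 and 8.78 at 3 weeks and 7.61, 8.02, 8.22 and 8.46 at 10 weeks (-0.72 ± 0.19, adjusted p = 0.0286), lower in every array at 10 weeks. Its target Fkbp5 differed by 0.22 ± 0.22 and did not pass, and 3 of 33 glucocorticoid response genes did (9.09%), among them the sulfotransferase gene Sult1a1 (-0.83 ± 0.23). The leptin receptor gene Lepr (-1.09 ± 0.28), the orexin receptor gene Hcrtr2 (-0.70 ± 0.19) and the somatostatin receptor gene Sstr1 (-1.01 ± 0.30) fell. The corticotropin-releasing hormone receptor gene Crhr1 (-0.68 ± 0.18) and Mc3r (-0.80 ± 0.19) fell too, with Mc3r below the lower quartile in 6 arrays. Of the receptors, Htr1a, Thrb and Rxra kept their call in all 8 fits, and after quantile normalisation 1 peptide and hormone receptor was higher and 7 were lower.

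Genes of the extracellular matrix moved in both directions. Of 48 genes of hyaluronan, lecticans and perineuronal nets, the lattices that form around fast-spiking cells, 5 rose and 3 fell (16.7%). Hapln4, a link protein that fixes brevican to hyaluronan, read 9.05, 9.67, 10.15 and 9.54 at 3 weeks and 10.68, 11.08, 11.22 and 11.89 at 10 weeks (1.62 ± 0.24, 3.06-fold, adjusted p = 0.00286), and its ages did not overlap. Hapln1, the link protein of the young brain, read 10.67, 10.57, 9.75 and 10.24 at 3 weeks and 9.30, 9.31, 9.81 and 9.35 at 10 weeks (-0.86 ± 0.23, adjusted p = 0.0301), with 1 array at 10 weeks above the lowest at 3 weeks. The chondroitin synthesis genes Chpf (1.23 ± 0.23), Chst15 (0.62 ± 0.18) and Chst11 (0.61 ± 0.18) and the link protein gene Hapln2 (0.92 ± 0.18) rose. Chst13 fell by 0.67 on the log2 scale and Adamts4, a protease that cuts lecticans and is made by oligodendrocytes, by 1.55. The lectican core protein genes did not pass: Acan differed by -0.10 ± 0.18, Bcan by 0.10 ± 0.17 and Ncan by -0.57 ± 0.26, and the tenascin gene Tnc by -0.64 ± 0.26.

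Basement membrane and collagen genes leaned downward, with medians of -0.22 over 45 and -0.21 over 42 members, while few passed (6.67% and 9.52%). After quantile normalisation the medians were -0.21 and -0.2, against 0 over all clusters. The collagen list was dim, with mean levels of 4.74 to 5.21 at 3 weeks. Sparc, a secreted protein that binds collagen, read 15.65, 16.42, 16.10 and 16.40 at 3 weeks and 14.83, 14.84, 14.76 and 14.89 at 10 weeks (-1.31 ± 0.21, 2.48-fold lower, adjusted p = 0.00396). Its ages were far apart, with the 10-week arrays within 0.13 of each other. Nid1, which links laminin to collagen IV, fell (-0.92 ± 0.19), as did the collagen chaperone gene Serpinh1 (-1.04 ± 0.23) and the collagen lysyl hydroxylase gene Plod2 (-1.36 ± 0.22). Col26a1 fell by 1.39 and Col8a1 by 0.68, whereas Col4a4 (0.84 ± 0.19), Col20a1 (0.85 ± 0.21) and Matn2 (1.16 ± 0.25) rose. The fibrillar collagen genes Col1a1 (-0.52 ± 0.30), Col1a2 (-0.17 ± 0.21) and Col3a1 (-0.33 ± 0.24) did not pass. Among 88 matrix proteases and inhibitors 5 rose and 8 fell (14.8%), with Mmp17 (0.89 ± 0.22) and Mmp8 (0.86 ± 0.18) higher and Mmp24 (-1.19 ± 0.23), Adamts18 (-1.25 ± 0.20), Mmp1b (-1.07 ± 0.19), Adamtsl2 (-0.99 ± 0.21) and Mmp9 (-0.73 ± 0.21) lower. Hapln4, Hapln2, Chpf, Adamts4, Sparc, Nid1, Plod2, Serpinh1, Adamtsl2, Col26a1, Matn2, Mmp8, Mmp24, Adamts18 and Mmp1b kept their call in all 8 fits.

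Genes of immature neurons were called at 15.9%, with 2 of 44 higher and 5 lower. Dcx, the microtubule protein of migrating neuroblasts, read 7.30, 7.44, 7.94 and 7.61 at 3 weeks and 6.54, 6.64, 6.87 and 6.42 at 10 weeks (-0.95 ± 0.19, 1.94-fold lower, adjusted p = 0.0105). Every array at 10 weeks lay below every array at 3 weeks. Tuba1a, the alpha-tubulin of growing neurites, read 16.66, 16.89, 16.31 and 16.36 at 3 weeks and 15.83, 15.90, 15.32 and 15.66 at 10 weeks (-0.88 ± 0.18, adjusted p = 0.0105). Cd24a (-0.76 ± 0.23), Mex3a (-1.03 ± 0.24) and Draxin (-0.77 ± 0.20) fell too. Draxin read below the lower quartile in 5 arrays and Mex3a in 3. Sox11 (-0.11 ± 0.20) and Sox4 (0.66 ± 0.26), transcription factors of newborn neurons, did not pass, and Neurod2 (0.87 ± 0.23) and Fezf2 (0.84 ± 0.22) rose. After quantile normalisation 0 of this list were higher and 11 lower. Lmnb1, the nuclear lamina gene that granule neurons lower as they mature, read 6.85, 6.53, 6.19 and 6.50 at 3 weeks and 5.61, 6.0, 4.89 and 4.93 at 10 weeks (-1.16 ± 0.20, adjusted p = 0.00585), the only 1 of 13 intermediate filament and lamina genes to pass (7.69%). Of 55 tubulins and microtubule-associated proteins 2 rose and 2 fell (7.27%), the rises being Dclk3 (0.94 ± 0.22) and Tube1 (0.79 ± 0.17).

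Guidance cues and cell adhesion genes changed member by member. Of 37 guidance ligands 3 rose and 4 fell (18.9%), and of 33 receptors 3 rose and 1 fell (12.1%). Beside Sema6a, the semaphorin genes Sema4d (-1.12 ± 0.24) and Sema3g (-0.91 ± 0.21) fell, while Sema4f (0.68 ± 0.20), the netrin-G gene Ntng1 (1.02 ± 0.28) and the ephrin gene Efna5 rose. Efna5, a repellent that shapes topographic maps, read 6.45, 5.97, 5.95 and 6.43 at 3 weeks and 7.38, 7.50, 7.03 and 7.08 at 10 weeks (1.05 ± 0.20, adjusted p = 0.00826). The netrin receptor genes Unc5d (0.84 ± 0.22) and Unc5c (0.67 ± 0.18) and the roundabout family gene Robo3 (0.72 ± 0.21) rose, and the Eph receptor gene Epha8 fell (-0.96 ± 0.28). Robo3 read below the lower quartile in 5 arrays, Epha8 in 4 and Sema3g in 3. Among 20 clustered protocadherins, which give neurons their surface identity, Pcdhb5 (1.24 ± 0.20) and Pcdhb3 (1.23 ± 0.20) rose and Pcdhb7 (-1.23 ± 0.19) fell, which is 15%. Of 42 other cadherins 2 rose and 3 fell (11.9%), led by Cdh12, which read 9.39, 10.05, 9.48 and 10.11 at 3 weeks and 10.97, 10.82, 10.76 and 11.65 at 10 weeks (1.29 ± 0.25, adjusted p = 0.0085). Cdh19 (0.86 ± 0.26) rose, and Cdh3 (-0.99 ± 0.27), Fat1 (-0.78 ± 0.23) and the dim Cdh16 (-0.68 ± 0.18) fell. In the immature neuron, guidance and adhesion groups Dcx, Tuba1a, Tube1, Lmnb1, Sema6a, Sema4d, Efna5, Cdh12, Pcdhb3, Pcdhb5 and Pcdhb7 kept their call in all 8 fits.

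Developmental signalling pathways stayed near the background share. Of 67 BMP and TGF-beta genes 6 rose and 4 fell (14.9%). Smad4, the common mediator of the pathway, read 9.72, 9.86, 10.15 and 9.96 at 3 weeks and 10.69, 11.16, 11.08 and 11.07 at 10 weeks (1.08 ± 0.18, adjusted p = 0.00531), and its ages did not overlap. The BMP mediator gene Smad1 (0.87 ± 0.20), the BMP target Id4 (0.90 ± 0.23), the receptor genes Acvr1c (0.77 ± 0.19) and Tgfbr3 (0.62 ± 0.18) and the BMP antagonist gene Grem1 (1.23 ± 0.33) also rose. Smad7, which inhibits the pathway, read 4.31, 4.05, 4.08 and 4.12 at 3 weeks and 3.49, 3.21, 3.19 and 2.78 at 10 weeks (-0.97 ± 0.19, adjusted p = 0.00887), with all 4 arrays at 10 weeks below their lower quartile. Gdf2 (-1.18 ± 0.19), Acvr2b (-1.07 ± 0.23) and Nodal (-0.69 ± 0.19) fell at similarly low levels.

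Of 37 Notch and Hedgehog genes 4 rose and 1 fell (13.5%). The Hedgehog receptor gene Ptch1 (0.93 ± 0.24), its signal transducer Smo (0.68 ± 0.17), the inhibitor gene Sufu (0.98 ± 0.24) and the Notch antagonist gene Numb (0.82 ± 0.18) rose, and Notch3, a receptor of mural cells, fell (-0.74 ± 0.17). Of 61 Wnt genes 4 rose and 2 fell (9.84%), with Dkk3 (0.85 ± 0.21), abundant in pyramidal neurons, and Notum (0.72 ± 0.20) higher. Dkk1 (0.90 ± 0.17) and Sfrp4 (0.66 ± 0.19) rose and Wnt8a (-0.78 ± 0.21) and Wnt11 (-0.75 ± 0.21) fell, each at levels below the lower quartile in all 8 arrays. Of 63 fibroblast growth factors, neurotrophins and receptors 5 rose and 2 fell (11.1%). Beside Ngfr, Fgf1 read 7.96, 9.20, 8.49 and 9.22 at 3 weeks and 9.39, 9.72, 9.83 and 10.09 at 10 weeks (1.04 ± 0.27, adjusted p = 0.0275), Fgf2 rose by 0.83 ± 0.20, the receptor gene Fgfr2 by 0.76 ± 0.21 and the neurturin receptor gene Gfra2 by 0.85 ± 0.25. The dim Fgf6 (-0.70 ± 0.18) and Gdnf (-0.64 ± 0.18) fell. Bdnf read 8.40, 9.63, 10.13 and 9.85 at 3 weeks and 8.74, 8.90, 10.39 and 9.31 at 10 weeks (-0.17 ± 0.29) and did not pass.

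Of 49 imprinted genes, expressed from the copy of 1 parent and often growth-related, 5 rose and 2 fell (14.3%). Cdkn1c, the maternally expressed brake on the cell cycle, read 4.39, 4.32, 4.34 and 4.12 at 3 weeks and 3.19, 2.87, 2.43 and 2.76 at 10 weeks (-1.48 ± 0.19, adjusted p = 0.00154). The 10-week arrays were all below their lower quartile. Ddc, which makes dopamine and serotonin from their precursors, fell too (-1.03 ± 0.22), while Blcap (1.11 ± 0.21), Peg10 (0.71 ± 0.19), Phlda2 (0.95 ± 0.23), Slc22a2 (0.92 ± 0.24) and Calcr (0.77 ± 0.20) rose. The growth factor gene Igf2 (-0.64 ± 0.49), Dlk1 (0.35 ± 0.45) and Plagl1 (-0.33 ± 0.36), which belong to the fetal growth network, did not pass. Of 23 oncofetal RNA-binding and let-7 pathway genes 4 rose and 0 fell (17.4%), among them Trim71 (1.19 ± 0.19), Elavl1 (0.73 ± 0.20), Cpsf6 (0.66 ± 0.19) and Nr6a1 (0.68 ± 0.21), and after quantile normalisation 1 was higher and 1 lower. Trim71 read 2.79 to 3.09 at 3 weeks, below the lower quartile of every array of that age. Of the signalling and imprinted genes Ngfr, Smad4, Smad1, Smad7, Gdf2, Acvr2b, Dkk1, Blcap, Cdkn1c, Ddc and Trim71 kept their call in all 8 fits.

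Lists of astrocyte, homeostatic microglia and vascular genes were called at shares under the 13.1% of all clusters. Of 48 astrocyte genes 3 rose and 0 fell (6.25%). Ppp1r3c, which targets a phosphatase to glycogen, read 10.35, 10.77, 10.34 and 10.45 at 3 weeks and 11.49, 11.76, 10.90 and 11.31 at 10 weeks (0.89 ± 0.20, adjusted p = 0.0148), and Id4 and the engulfment receptor gene Megf10 (0.76 ± 0.21) were the others. Gfap (0.24 ± 0.26) and Aqp4 (0.19 ± 0.25) did not pass. Of 32 homeostatic microglia genes the fractalkine receptor gene Cx3cr1 alone rose (0.66 ± 0.20), 3.12% of the list, and Olfml3 differed by 0.57 ± 0.20. Of 26 genes of developmental and disease-associated microglia 2 rose and 2 fell (15.4%). Gpnmb, a lysosomal glycoprotein of phagocytes, read 5.12, 5.08, 5.41 and 5.55 at 3 weeks and 6.50, 5.71, 6.61 and 7.08 at 10 weeks (1.19 ± 0.22, adjusted p = 0.00735), and the cystatin gene Cst7 rose by 0.75 ± 0.22 at a low level. Cd9, a tetraspanin also made by oligodendrocytes, fell (-1.37 ± 0.25), as did the dim chemokine gene Ccl3 (-0.81 ± 0.18).

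Of 40 endothelial and barrier genes 1 rose and 2 fell (7.5%). Mfsd2a, the lipid transporter that holds back transcytosis at the blood-brain barrier, read 9.14, 8.97, 8.95 and 9.01 at 3 weeks and 8.14, 8.51, 8.29 and 8.25 at 10 weeks (-0.72 ± 0.18, adjusted p = 0.0221), with no overlap. Plvap, a protein of leaky vessels, fell by 1.06 at levels below the lower quartile in 7 arrays, and Spock2 rose by 0.64 ± 0.19. Of 34 pericyte, smooth muscle and fibroblast genes 0 rose and 4 fell (11.8%, median -0.30), namely Notch3, Anpep (-0.77 ± 0.21), Cnn1 (-1.14 ± 0.21) and Mustn1 (-0.81 ± 0.18). Ppp1r3c, Gpnmb, Cd9, Ccl3, Cnn1 and Mustn1 kept their call in all 8 fits.

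Immune genes that also act at synapses were called somewhat above the background share, in both directions. Of 33 complement genes, which tag synapses for removal by microglia, 4 rose and 3 fell (21.2%). C4b read 6.38, 6.31, 5.78 and 6.19 at 3 weeks and 7.03, 7.21, 7.14 and 7.06 at 10 weeks (0.95 ± 0.19, 1.93-fold, adjusted p = 0.00924). C1qb, a chain of the initiating C1q complex, read 6.93, 7.18, 7.84 and 7.65 at 3 weeks and 8.52, 8.37, 8.43 and 8.15 at 10 weeks (0.97 ± 0.22, adjusted p = 0.0147). The ages did not overlap in either gene. The chain C1qa read 8.08, 8.43, 8.23 and 7.99 at 3 weeks and 8.14, 7.53, 8.35 and 8.57 at 10 weeks (-0.03 ± 0.23) and did not pass. The anaphylatoxin receptor genes C3ar1 (0.95 ± 0.23) and C5ar1 (0.74 ± 0.18) rose, and Masp1 (-1.11 ± 0.23), C9 (-1.33 ± 0.22) and C8b (-0.77 ± 0.19) fell.

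Of 48 genes of the major histocompatibility complex and antigen presentation, 7 rose and 5 fell (25%), with a median of -0.08. H2-K1, a classical class I heavy chain, read 8.51, 8.68, 7.88 and 8.40 at 3 weeks and 9.13, 9.07, 9.45 and 8.91 at 10 weeks (0.77 ± 0.21, adjusted p = 0.0342). Its partner B2m read 12.62, 13.55, 13.61 and 13.54 at 3 weeks and 14.26, 13.87, 14.49 and 13.64 at 10 weeks (0.74 ± 0.26, adjusted p = 0.0792), with no overlap between the ages but without passing. H2-D1 differed by 0.45 ± 0.18 at levels below the lower quartile in 6 arrays. H2-T24 (1.00 ± 0.22), H2-Ke6 (0.87 ± 0.18), H2-M10.5 (1.27 ± 0.19), H2-Q4 (0.73 ± 0.18), H2-T3 (0.66 ± 0.18) and Cd1d2 (0.73 ± 0.20) rose, whereas the class II gene H2-Ab1 (-0.87 ± 0.21), the tapasin-like gene Tapbpl (-0.96 ± 0.21), H2-T-ps, H2-M10.4 and H2-Q1 fell. The class I heavy chain genes among them are closely alike in sequence, so that values of single H2-K, H2-D, H2-Q, H2-T and H2-M members are uncertain where probes are shared. H2-Ke6 lies in the region but encodes a dehydrogenase. Cd1d2 read 2.49 to 3.29 at 3 weeks, below the lower quartile of every array of that age. Of 46 interferon response genes 3 rose and 5 fell (17.4%), with Ifit2 at 1.28 ± 0.20, Oasl2 at 0.80 ± 0.22 and Parp14 at 0.79 ± 0.23 against Gbp3 at -1.04 ± 0.24, Oas2 at -0.90 ± 0.21, Irgm2 at -0.82 ± 0.25, Rsad2 at -0.75 ± 0.20 and Ifit1 at -0.63 ± 0.18. Ifit1 read 2.82 to 3.21 at 10 weeks, below the lower quartile of every array of that age. Ifi27 differed by 0.65 ± 0.37. C4b, C1qb, C9, Masp1, H2-T24, H2-Ke6, H2-M10.5, Tapbpl, Ifit2 and Gbp3 kept their call in all 8 fits.

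Of 34 genes of ketone body and fatty acid oxidation 2 rose, 5 fell and 27 did not pass (20.6% called), with a median of -0.23. With the Ttr level as a covariate 3 were higher and 3 lower, and 0 of the 5 falls kept their call in all 8 fits without 1 array. Oxct1, the enzyme that commits ketone bodies to oxidation, read 14.56, 14.86, 14.87 and 14.80 at 3 weeks and 14.11, 13.82, 14.21 and 13.66 at 10 weeks (-0.82 ± 0.20, 1.77-fold lower, adjusted p = 0.019). All 4 arrays at 10 weeks were lower than all 4 at 3 weeks. Bdh1, the enzyme of the preceding step, read 10.10, 10.49, 10.51 and 10.32 at 3 weeks and 9.03, 9.48, 9.78 and 10.18 at 10 weeks (-0.74 ± 0.22, adjusted p = 0.0417), with the second clothianidin array at 10 weeks inside the range of the younger arrays. Slc16a1, which carries ketone bodies and lactate, differed by 0.00 ± 0.21. Acadvl (-0.72 ± 0.18), Cpt2 (-0.75 ± 0.21) and Etfdh (-0.79 ± 0.22), which burn fatty acids in mitochondria, also fell. The mitochondrial carrier gene Slc25a27 (1.25 ± 0.23) and Cpt1c rose.

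Of 37 genes of glucose, glycogen and lactate metabolism 4 rose and 1 fell (13.5%). Pfkfb3, which makes the activator of phosphofructokinase, read 7.45, 8.05, 6.82 and 7.69 at 3 weeks and 8.80, 9.28, 8.37 and 8.42 at 10 weeks (1.22 ± 0.24, adjusted p = 0.00872). Pfkp, the phosphofructokinase of brain, rose by 0.73 ± 0.19, the glycogen synthase gene Gys1 by 0.94 ± 0.18 and its regulator Ppp1r3c as above, while the pentose phosphate gene Taldo1 fell (-0.68 ± 0.20). Phgdh, which opens serine synthesis, fell (-0.76 ± 0.21) and Mthfd2l rose (0.85 ± 0.18), 5.56% of 36 amino acid and one-carbon genes. Of 33 metal handling genes the iron importer gene Slc11a2 rose (1.04 ± 0.22) and the ferroxidase gene Heph fell (-0.86 ± 0.21), which is 6.06%.

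Of 24 genes of cholesterol synthesis and uptake 2 rose and 3 fell (20.8%). The falls were in synthesis: Hmgcs1, an early enzyme of the pathway, read 15.31, 16.13, 15.65 and 15.83 at 3 weeks and 14.88, 14.81, 15.16 and 14.81 at 10 weeks (-0.81 ± 0.21, adjusted p = 0.0275). Cyp51, the lanosterol demethylase, read 11.70, 12.06, 11.73 and 11.62 at 3 weeks and 10.55, 10.69, 10.80 and 10.76 at 10 weeks (-1.08 ± 0.18, adjusted p = 0.00539), and Sc5d, a late sterol desaturase, fell by 0.68. The ages did not overlap in any of the 3. Abcg1, which exports cholesterol, rose (1.07 ± 0.20), as did Scap, the escort of the SREBP transcription factors (0.82 ± 0.19). Of 38 genes of sphingolipid and ganglioside synthesis 4 rose and 3 fell (18.4%). The sialyltransferase genes St3gal2 (1.32 ± 0.23), St8sia1 (0.87 ± 0.18) and St3gal5 (0.74 ± 0.21), which build gangliosides, rose with Acer3. Cers2, which makes the very long ceramides of myelin, fell (-1.01 ± 0.24), as did Degs1 (-0.73 ± 0.20) and B3galt4 (-1.08 ± 0.24). In metabolism Pfkfb3, Gys1, Slc25a27, Mthfd2l, Slc11a2, Cyp51, Abcg1, Acer3, St3gal2, St8sia1 and B3galt4 kept their call in all 8 fits.

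**Figure D3:**
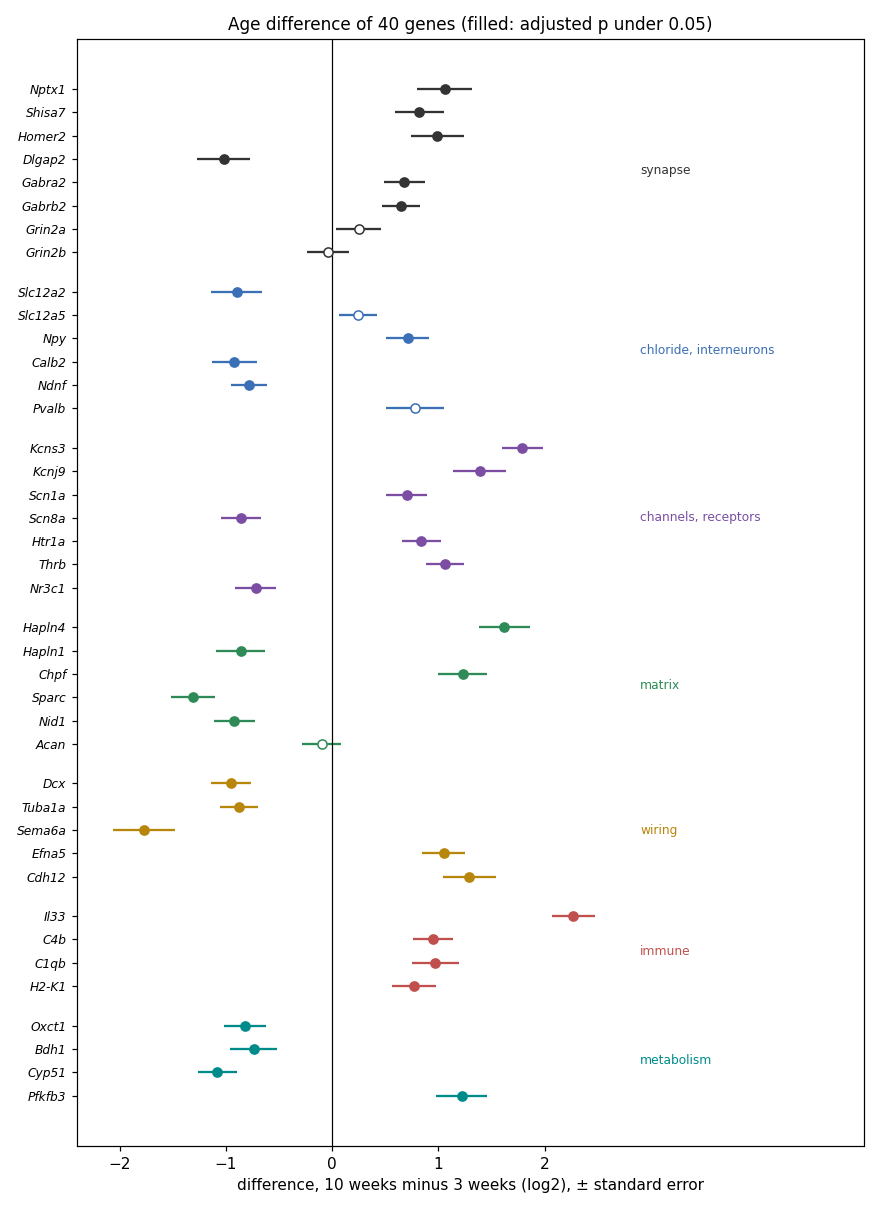
Age difference (10 weeks minus 3 weeks, log2) with its standard error for 40 genes described in the text, grouped by role; filled points passed the limma threshold (adjusted p under 0.05) and open points did not. Il33 lies furthest right and Sema6a furthest left.

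Genes that neuronal activity switches on leaned upward. Of 47 activity-regulated genes 7 rose and 1 fell (17%), with a median difference of 0.30 against 0.07 over all clusters. Over clusters at or above the median level it was 0.17. The median of the list was 0.13 after quantile normalisation, against 0 over all clusters. Without the 3 arrays of high Ttr it was 0.15, against 0.06. Fos, the transcription factor gene that marks recently active neurons, read 4.42, 2.94, 2.91 and 3.85 at 3 weeks and 5.0, 5.15, 4.81 and 4.63 at 10 weeks (1.37 ± 0.30, 2.58-fold, adjusted p = 0.0141). All 10-week arrays were higher, though at 3 weeks 3 arrays read below their lower quartile. Nr4a1, an orphan nuclear receptor gene, read 8.33, 7.73, 7.44 and 8.31 at 3 weeks and 8.81, 8.91, 8.61 and 8.86 at 10 weeks (0.85 ± 0.23, adjusted p = 0.0312). Fosb (0.69 ± 0.19), Egr4 (0.77 ± 0.18), Egr3 (0.63 ± 0.19), Fosl1 (0.62 ± 0.17) and Per1 also rose, and Ier2 fell (-1.07 ± 0.22). The other pair of Egr3 clusters gave adjusted p-values of 0.0555 and 0.291. Fos and Ier2 kept their call in all 8 fits, and after quantile normalisation 3 were higher and 1 lower. The labels do not give the time of day or the handling before dissection, on which such genes depend.

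Clock genes were called at 13.6%, with 3 of 22 higher. Arntl, which encodes BMAL1, the positive arm of the circadian clock, read 8.17, 8.23, 8.56 and 8.59 at 3 weeks and 9.53, 9.77, 9.43 and 9.60 at 10 weeks (1.20 ± 0.19, 2.29-fold, adjusted p = 0.00396), and the ages did not overlap. Cry2, a repressor of the same loop, read 11.70, 11.56, 12.26 and 12.23 at 3 weeks and 12.27, 13.37, 13.21 and 13.19 at 10 weeks (1.07 ± 0.23, adjusted p = 0.0134), where the first vehicle array at 10 weeks lay just above the young arrays. Per1, a repressor that is also an activity and glucocorticoid target, read 8.69, 7.92, 8.43 and 8.69 at 3 weeks and 8.88, 9.31, 9.18 and 9.59 at 10 weeks (0.81 ± 0.22, adjusted p = 0.0322). Arntl and Cry2 kept their call in all 8 fits. Of 85 chaperones 6 rose and 3 fell (10.6%), the rises being mostly DNAJ co-chaperones such as Dnajc16 (1.17 ± 0.23), Dnajc14 (1.01 ± 0.19), Dnaja2 (0.96 ± 0.24) and Dnajc27 (0.66 ± 0.19), of which Dnajc16 and Dnajc14 kept their call in all 8 fits.

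The promoters of the activity-regulated genes that rose are shown because the cAMP response element in such promoters is where CREB binds, the factor that links neuronal firing to their transcription. The windows run from 250 bases before to 50 bases after the RefSeq start (build GRCm38.p6), and 34 of the 47 measured members matched a window. The whole element TGACGTCA, which reads the same on both strands, was in 0 of the 5 risen members with a window, in 5 of the 34 and in 2.03% of all 27025 genes with a window. Its half-site TGACG, searched on both strands after that result was known, was in all 5 and in 24 of the 34, against 23% of all genes; a gene counts where any of its windows holds the motif. The half-site lies inside the whole element. Capitals mark TGACG or its complement CGTCA in the windows of Fos at chr12:85473640-85473939 (plus strand), Nr4a1 at chr15:101266596-101266895 (plus strand), Egr4 at chr6:85513540-85513839 (minus strand), Fosb at chr7:19309996-19310295 (minus strand) and the second listed window of Per1 at chr11:69099902-69100201 (plus strand).
Fos: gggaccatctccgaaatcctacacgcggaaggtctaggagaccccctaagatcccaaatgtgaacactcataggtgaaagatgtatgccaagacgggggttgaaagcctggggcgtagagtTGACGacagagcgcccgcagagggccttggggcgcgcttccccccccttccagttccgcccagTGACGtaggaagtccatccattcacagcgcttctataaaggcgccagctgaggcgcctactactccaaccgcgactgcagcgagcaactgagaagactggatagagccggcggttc
Nr4a1: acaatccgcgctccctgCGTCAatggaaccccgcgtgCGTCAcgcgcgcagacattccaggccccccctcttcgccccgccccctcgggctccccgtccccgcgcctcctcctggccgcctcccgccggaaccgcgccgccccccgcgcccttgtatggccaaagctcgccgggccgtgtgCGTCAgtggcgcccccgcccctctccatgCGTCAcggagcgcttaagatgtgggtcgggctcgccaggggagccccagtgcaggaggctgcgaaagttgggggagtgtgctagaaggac
Egr4: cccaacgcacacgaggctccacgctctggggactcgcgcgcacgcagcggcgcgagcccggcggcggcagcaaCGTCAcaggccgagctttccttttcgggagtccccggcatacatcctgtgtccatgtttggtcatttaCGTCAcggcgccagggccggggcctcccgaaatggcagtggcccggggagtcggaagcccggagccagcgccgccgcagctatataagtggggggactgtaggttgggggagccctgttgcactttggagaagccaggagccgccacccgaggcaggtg
Fosb: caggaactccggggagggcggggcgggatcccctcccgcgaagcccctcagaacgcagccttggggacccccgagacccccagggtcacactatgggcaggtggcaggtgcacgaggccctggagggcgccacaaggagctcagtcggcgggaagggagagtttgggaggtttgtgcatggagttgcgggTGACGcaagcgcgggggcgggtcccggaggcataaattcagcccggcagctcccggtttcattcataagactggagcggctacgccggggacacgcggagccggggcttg
Per1: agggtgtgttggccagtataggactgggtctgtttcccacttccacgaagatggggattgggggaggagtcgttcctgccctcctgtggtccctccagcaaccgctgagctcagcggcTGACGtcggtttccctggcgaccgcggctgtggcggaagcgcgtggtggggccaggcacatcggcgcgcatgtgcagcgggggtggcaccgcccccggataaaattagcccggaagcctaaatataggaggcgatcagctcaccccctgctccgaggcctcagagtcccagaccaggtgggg
Nr4a1 carried 4 half-sites, Fos and Egr4 2 each, and Fosb and each Per1 window 1.

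For the cholesterol genes that fell together, the motif was the sterol regulatory element CACCCCAC, bound by SREBP factors when sterols are low. It was in 1 of the 3 fallen members and in 1 of the 19 measured members with a window (5.26%), on either strand, against 3.3% of all genes. That member is Hmgcs1 at chr13:119690101-119690400 (plus strand), with the copy in capitals starting at position -136 from the start site.
Hmgcs1: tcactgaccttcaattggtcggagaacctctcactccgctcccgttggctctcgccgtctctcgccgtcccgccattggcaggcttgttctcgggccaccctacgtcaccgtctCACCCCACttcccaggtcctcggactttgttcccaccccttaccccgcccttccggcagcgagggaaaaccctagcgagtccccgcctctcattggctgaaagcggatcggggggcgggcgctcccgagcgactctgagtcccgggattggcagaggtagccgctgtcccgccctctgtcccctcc
Cyp51 and Sc5d held 0 copies in their windows. These matches describe letters and no binding was measured.

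Markers of the hippocampal fields and of neighbouring tissue were read alongside. The dentate granule cell marker gene Prox1 read 10.91, 12.37, 13.01 and 11.83 at 3 weeks and 11.50, 12.29, 12.66 and 12.33 at 10 weeks and the CA1 marker gene Wfs1 12.12, 12.29, 11.65 and 12.40 at 3 weeks and 12.69, 12.44, 12.18 and 12.87 at 10 weeks, so both defining markers were bright in every array. Of 10 CA1 markers 2 rose (20%), Gpr161 (1.10 ± 0.19) and Lamp5, while 0 of 17 CA2 and CA3 markers and 0 of 17 dentate markers passed, with Necab2 at 0.48 ± 0.19, Map3k15 at 0.47 ± 0.25, Trpc6 at 0.73 ± 0.23 and Plekha2 at 0.60 ± 0.22. With the Ttr level as a covariate 3 dentate markers were higher. Of 18 neocortical markers 4 rose and 0 fell (22.2%), namely Deptor (1.19 ± 0.27), Fezf2, Lamp5 and Whrn (0.78 ± 0.20), with 2 of 18 higher after quantile normalisation, and the mean level of that list lay between 7.75 and 8.26 at 3 weeks and between 8.04 and 8.63 at 10 weeks. Of 14 striatal markers 3 rose (21.4%), the adenylyl cyclase gene Adcy5 (1.08 ± 0.20) together with Drd2 and Penk, with list means of 6.65 to 6.73 and 6.76 to 7.23. The defining striatal gene Drd1 read 4.98, 4.60, 4.40 and 4.81 at 3 weeks and 5.35, 5.10, 4.40 and 5.22 at 10 weeks and did not pass. Of 17 thalamic and habenular markers Ntng1 and the dim Gbx2 (0.83 ± 0.18) rose and Calb2 fell (17.6%), with list means of 6.81 to 7.08 and 6.93 to 6.99. The part of tissue at the edge of the dissection in the changes of Penk, Drd2, Fezf2, Lamp5, Ntng1 and Calb2 was not tested.

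Choroid plexus and ependyma markers were the most uneven between arrays, with list means of 5.25 to 7.86 at 3 weeks and 4.79 to 7.62 at 10 weeks. Their median difference was -0.72 over all 8 arrays and -0.34 without the 3 arrays of high Ttr. Taken separately, the median was -1.01 in vehicle and -0.03 in clothianidin arrays. The arrays of high Ttr were 1 vehicle and 1 clothianidin array at 3 weeks and 1 clothianidin array at 10 weeks. The part of exposure in this split was not tested. Of the 21 measured, Rarres2 (-0.75 ± 0.20) and Col8a1 fell (9.52%). Ttr differed by -3.46 ± 3.13. Of 7 blood cell genes Alas2, the heme synthesis enzyme of red cells, read 7.55, 6.17, 6.84 and 6.54 at 3 weeks and 5.66, 5.43, 5.34 and 5.59 at 10 weeks (-1.27 ± 0.27, adjusted p = 0.0115), and the dim neutrophil gene Ngp fell too (-0.65 ± 0.18). Adcy5, Deptor, Gpr161, Gbx2 and Alas2 kept their call in all 8 fits.

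**Figure D4:**
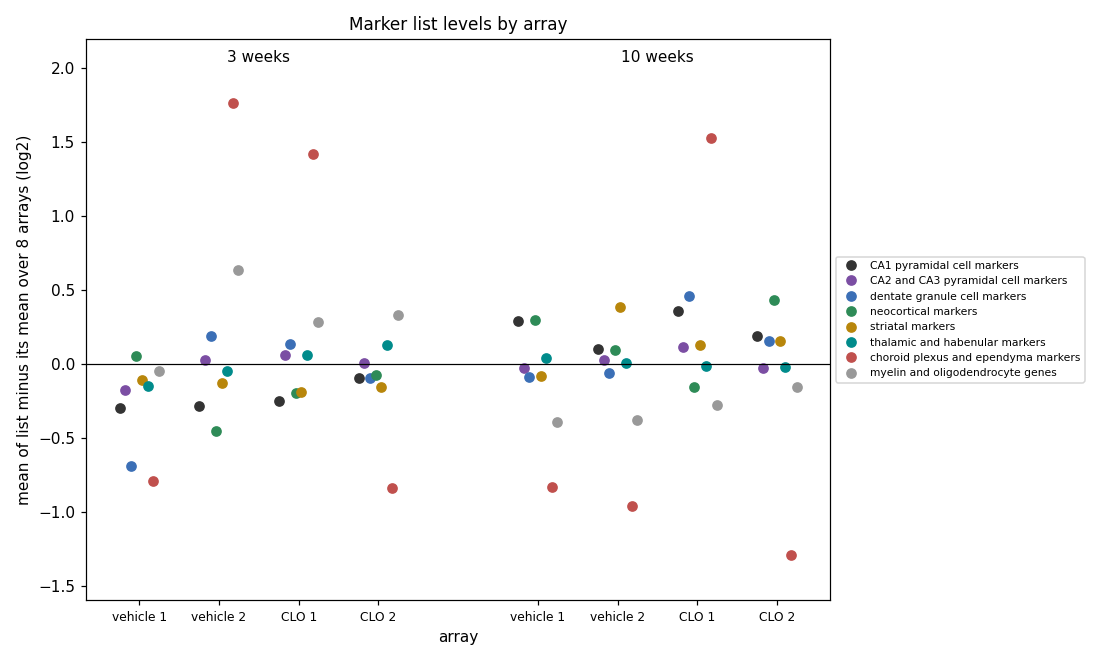
Mean log2 level of the measured members of 8 marker lists in each array, drawn relative to the mean of all 8 arrays, with 3-week arrays on the left and 10-week arrays on the right. The choroid plexus list stands above 0 in the 3 arrays with Ttr above 18, while the lists of hippocampal fields and neighbouring regions vary less. The CA1 list lies higher in every 10-week array than in any 3-week array.

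For context, 4 of 44 myelin and oligodendrocyte genes rose and 15 fell (43.2%), the largest share of any list. Gsn, an actin-severing protein of oligodendrocytes, read 11.70, 12.07, 11.63 and 11.67 at 3 weeks and 8.11, 8.83, 8.89 and 8.58 at 10 weeks (-3.16 ± 0.22, adjusted p = 8.2e-05), Ugt8a, which makes the galactolipids of myelin, differed by -2.62 ± 0.25 and Mbp by -1.14 ± 0.23, while Ndrg1 (1.77 ± 0.20) and Qdpr (1.23 ± 0.18) rose. Of 66 cell division genes 2 rose and 11 fell (19.7%), with Mki67 (-1.51 ± 0.23) and Kif23 (-1.29 ± 0.21) lower, Dlgap5 (1.51 ± 0.24) and Aurkb (0.63 ± 0.18) higher, and Top2a at 0.49 ± 0.20 without passing. Gsn, Ugt8a, Mbp, Ndrg1, Qdpr, Mki67, Kif23 and Dlgap5 kept their call in all 8 fits. Of 53 replication-dependent histone genes H2bc13 alone fell (-0.87 ± 0.22), 1.89% of the list.

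Within the vehicle arrays alone 70 clusters passed (0.315%), 26 higher and 44 lower, and within the clothianidin arrays alone 125 (0.563%), 49 higher and 76 lower. Leaving out each of the 8 arrays in turn gave 0 to 17 calls in vehicle arrays and 0 to 150 in clothianidin arrays. The clothianidin count was 0 without any 1 clothianidin array, 16 without either 10-week vehicle array and 150 without either 3-week vehicle array. The vehicle and clothianidin counts were 1 and 17 with the replicate block, 1 and 658 with array weights, and 0 and 0 without the 3 arrays with Ttr above 18. Of the 70, all had the same sign in the clothianidin arrays and 64 an unadjusted p under 0.05 there. Of the 125, 122 had the same sign in the vehicle arrays and 107 an unadjusted p under 0.05. No array is shared between these comparisons, and over all clusters 72.5% had the same sign in both. Their p-values are not independent, because 1 model over all 8 arrays gave both the same estimate of a cluster's spread. Across clusters the differences correlated at a Pearson r of 0.631 and a Spearman rho of 0.614, where clusters are not independent replicates. Il33 differed by 1.97 in vehicle and 2.57 in clothianidin arrays, Hapln4 by 1.52 and 1.71, Sparc by -1.20 and -1.43, and Oxct1 by -0.75 and -0.90.

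The test of the difference itself, the interaction of age and exposure in limma, passed for 0 clusters (0%), with 695 at an unadjusted p under 0.05 and a lowest adjusted p of 0.998. The largest positive values among those with an unadjusted p under 0.01 were in Ace (2.39), Obp2a (2.03), Zfp976 (2.01), BC055324 (1.90) and Eif2s3y (1.88). Ace, a member of the choroid plexus and ependyma list, read 7.17, 8.38, 6.88 and 6.02 at 3 weeks and 5.28, 5.82, 7.48 and 5.76 at 10 weeks. Its values 8.38, 6.88 and 7.48 come from the arrays with Ttr above 18, and the part of choroid plexus in its interaction was not tested. The largest negative values were in Cd36 (-3.48), Cdkn1a (-1.95), Hormad1 (-1.91), Clca4a (-1.82) and Sult2a2 (-1.76). Eif2s3y, a translation factor gene of the Y chromosome, read 9.77, 9.83, 7.87 and 8.30 at 3 weeks and 7.80, 7.68, 7.72 and 8.08 at 10 weeks, with the vehicle arrays at 3 weeks above the other 6, and its age difference was -1.12 ± 0.32 (adjusted p = 0.0402). Without the second vehicle array at 10 weeks 1 cluster passed the interaction test, the lipocalin gene Lcn2, which read 3.60, 3.35, 3.83 and 4.17 at 3 weeks and 8.04, 3.77, 3.40 and 2.60 at 10 weeks. A single array, the first vehicle array at 10 weeks, held that high value.

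**Figure D5:**
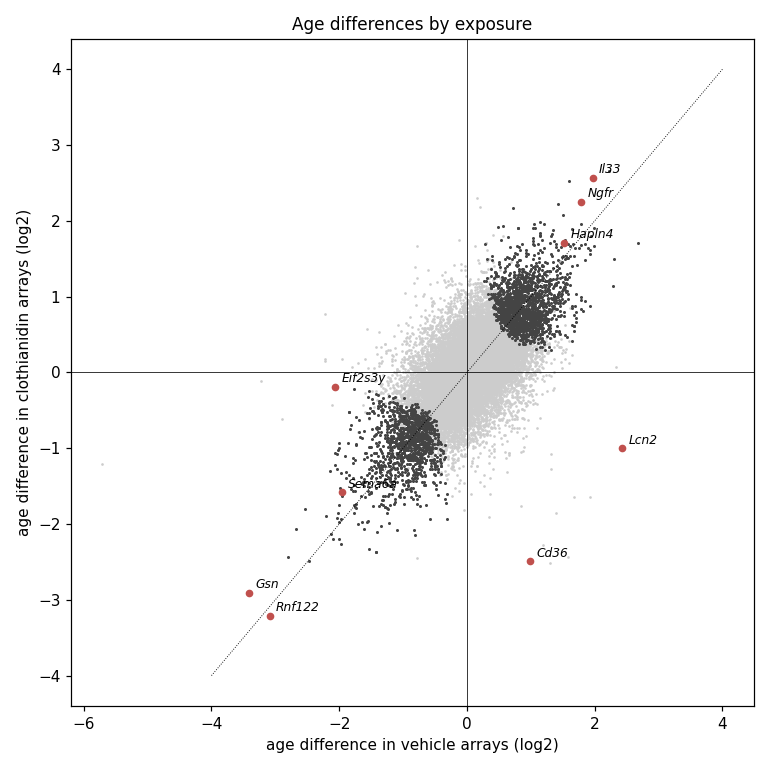
Age difference (10 weeks minus 3 weeks, log2) in vehicle arrays (x axis) against that in clothianidin arrays (y axis), 2 arrays per age in each; grey points are the 22206 clusters, dark points those that passed over all 8 arrays, and labels mark genes named in the text. The dark points fall on both sides along the diagonal, and Cd36 and Eif2s3y lie off it.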

How the data were processed

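Total RNA of the hippocampus (250 ng per array, RIN over 7 per the labels' protocols) was hybridised to 8 whole-transcript arrays, 2 for each combination of age and exposure. The deposited table gives each transcript cluster a log2 intensity, which the authors made with RMA per the submitters' processing notes; its version is not given in the sources used here. Symbols were taken from the annotation of the platform and checked against RefSeq gene numbers: 19572 of 22206 clusters had 1 symbol and 2634 had none. The deposited log2 values were used unchanged. A limma model (version 3.58.1, R 4.3.3) with exposure as a covariate was fitted to all clusters, with Benjamini-Hochberg adjustment over all of them. Age differences within an exposure and the interaction came from a model with 4 group means. The fit was tested on simulated data. For a gene with several clusters the first was used.

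The gene lists and the genes described were chosen with earlier results of these data known. Named by rule were the 15 largest rises and falls among called clusters with 1 symbol and no overlap of ages (leaving out predicted genes, olfactory and vomeronasal receptors, small RNAs and the myelin, cell division and histone lists), up to 5 called members of a list in each direction, a fixed set of genes, and the 5 largest interactions of each sign at an unadjusted p under 0.01. Crhr1, Tgfbr3, Serpinh1, Adamtsl2, Mmp9, H2-Q4, H2-T3, Egr3, Fosl1, Prox1, Wfs1, Drd1 and Lcn2 were added after their values were seen. Grin1, Meg3 and Xist, also in the fixed set, were not analysed here. Alternatives covered the threshold, model, prior, array weights, level filter, normalisation, replicate block, Ttr level and each array left out. The number of arrays limits the precision.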

Additional observations from a re-analysis of the deposited data

Results flagged for a closer look

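Among the 662 sets of 4 arrays of an age examined for the genes named above, 34 held an array that stood apart from the other 3 by Dixon's ratio (critical value 0.829). Chance flags about 1 in 20 groups, which is close to the share found here, so a flag alone does not mark an array as faulty. Values are log2 intensities.

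The first vehicle array at 3 weeks stood apart in 9 of them. It was the lowest for B2m (12.62, next 13.54), Elovl1 (8.84, next 9.83), Gria1 (16.70, next 17.35), Rnf122 (10.0, next 10.92) and Rxra (5.88, next 6.38). It was the highest for Cd24a (8.06), Epha8 (5.42), Glb1l3 (5.24) and Peg10 (5.95). The second vehicle array at 3 weeks was the lowest for Abcg1 (8.84) and Necab2 (8.01) and the highest for Gsn (12.07). Of the clothianidin arrays at 3 weeks, the first was the lowest for Cd1d2 (2.49) and Draxin (3.92), and the second the highest for Trim71 (3.09).

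At 10 weeks the first vehicle array was the lowest for Chpf (11.48, next 12.39), Cry2 (12.27, next 13.19), Crhr1 (5.86), Slc11a2 (7.74) and Smad1 (9.29), and the highest for Epha8 (3.58) and Fgf2 (6.99). The second vehicle array was the lowest for Ifit1 (2.82) and the highest for Kcng4 (4.02). The first clothianidin array was the highest for Ttr (18.25, next 7.37), Cpt1c (11.65), Fezf2 (12.21), Hapln1 (9.81) and Kif23 (4.41), and the lowest for H2-M10.5 (4.75). The second clothianidin array was the lowest for Aurkb (4.11) and Lepr (3.87) and the highest for Mllt1 (7.12) and Nlgn1 (13.76).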

How the results depend on the processing

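None of the 2905 called clusters changed the sign of its difference in the 22 other settings run, but in many of these no sign could turn. The threshold, prior, group-means, no-covariate, replicate-block and level-filter settings leave the difference itself unchanged. The level filter also kept only 1354 of the 2905. In the remaining settings the clusters had been called on the same arrays, which favours a stable sign. The 2905 calls (1687 higher, 1218 lower) became 4902 (2936 and 1966) at an adjusted p under 0.1, 614 (323 and 291) at 0.01, 1498 with 319 lower when clusters under the median level were dropped, and 77 (29 and 48) without the 3 arrays of high Ttr, where 5 arrays remain. Leaving out 1 array gave 1540 to 2469 calls, with 869 to 1395 higher and 671 to 1074 lower; 1121 were higher once vehicle 1 at 3 weeks was dropped. The 70 calls within vehicle arrays became 736, 1, 34 and 0 in the first-named 4 settings, 1 with array weights, 11 with the Ttr level as a covariate and 0 to 17 without 1 array. The 125 within clothianidin arrays became 715, 3, 23 and 0, then 658 with array weights and 0 to 150 without 1 array. The interaction gave 0 to 1 calls without 1 array. Where 1 array is left out, a lone array is assumed to vary like the other groups. With the replicate number as a block, 2478 clusters passed over both exposures, 1 in vehicle and 17 in clothianidin arrays. The numbers do not pair the arrays: deviations of same-numbered arrays correlated between -0.267 and 0.138. Genes whose sign turned had not passed. Slc16a1 read -0.05 with array weights, -0.20 after quantile normalisation and -0.06 after centring. Bcan read -0.11 after quantile normalisation and 0.00 without the 3 arrays. With the Ttr covariate Bdnf read 0.07, C1qa 0.02, Grin2b 0.04 and Ttr 0.00. Without the 3 arrays Bdnf read 0.01, C1qa 0.11, Dlk1 -0.51 and Grin3a 0.00. Over the fits that left out 1 array, Bdnf ran from -0.41 to 0.08, C1qa from -0.16 to 0.16, Dlk1 from -0.28 to 0.82, Grin2b from -0.15 to 0.10, Grin3a from -0.07 to 0.53, Plagl1 from -0.71 to 0.00, Slc16a1 from -0.15 to 0.10 and Sox11 from -0.25 to 0.00. The cause of these changes was not tested, and the number of arrays limits the precision.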
